A study of Mus musculus with 4 samples.

Results

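TEAD1, TEAD2, TEAD3 and TEAD4, with the co-activators YAP1 and TAZ (encoded by Wwtr1), belong to the downstream part of the Hippo pathway. So do the kinases LATS1 and LATS2 and the TEAD partner VGLL4. The 9 mouse genes that encode these proteins were followed through 2 lists of open chromatin from the facial surface ectoderm of E11.5 embryos. A control peak or an AP-2-dependent region was counted for a gene when its centre lay within 100 kb of the start site of the gene's principal transcript. By this rule 140 of the 65467 control peaks and 4 of the 3103 AP-2-dependent regions belonged to the 9 genes. EDKO embryos carried Crect with the alleles Tfap2a flox/flox and Tfap2b flox/flox, and the control littermates lacked Crect and had Tfap2a flox/+ and Tfap2b flox/+, so that floxed alleles were present in both groups and AP-2α and AP-2β were removed only where Crect was active in the ectoderm of EDKO embryos. Each group had 2 libraries made from 50000 cells of ectoderm pooled over the facial prominences. Both control libraries together gave the control peaks. A second call, in which the EDKO libraries served as the background of the control libraries, gave the AP-2-dependent regions, which are stretches more accessible in controls than in EDKO embryos. The libraries were combined before peaks were called, so a peak has no value per library, no error between replicates and no read count (the study's methods state a sequencing depth per sample, which the lists do not carry to single peaks), and a gene without a region can still have lost accessibility below the threshold of the call.

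The Hippo pathway holds growth in check through a chain of kinases. LATS1 and LATS2 phosphorylate YAP1 and TAZ, which keeps these co-activators out of the nucleus. When the kinases are quiet, YAP1 and TAZ enter the nucleus and act through the TEAD factors, which bind DNA at the sequence GGAATG or its extensions, while VGLL4 competes with YAP1 and TAZ for the TEAD factors. In epithelia, including the epidermis, the pathway is known for coupling cell density and mechanical tension to proliferation.

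The 4 AP-2-dependent regions carry what the lists say about loss of AP-2 near these genes, and 201 bases around the summit of each are therefore shown from the plus strand of GRCm38. Capitals mark the AP-2 string GCCNNNGGC.
Tead1 region, chr7:112762992-112763192: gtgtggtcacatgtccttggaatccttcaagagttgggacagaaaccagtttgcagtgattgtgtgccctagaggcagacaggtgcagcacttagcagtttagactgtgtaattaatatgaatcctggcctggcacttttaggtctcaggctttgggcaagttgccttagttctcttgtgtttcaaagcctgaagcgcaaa
Yap1 region, chr9:8033012-8033212: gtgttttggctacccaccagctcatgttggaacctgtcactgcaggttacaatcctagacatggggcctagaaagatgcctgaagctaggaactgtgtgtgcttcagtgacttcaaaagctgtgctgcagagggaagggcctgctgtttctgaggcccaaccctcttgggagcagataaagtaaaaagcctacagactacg
Lats1 region, chr10:7776463-7776663: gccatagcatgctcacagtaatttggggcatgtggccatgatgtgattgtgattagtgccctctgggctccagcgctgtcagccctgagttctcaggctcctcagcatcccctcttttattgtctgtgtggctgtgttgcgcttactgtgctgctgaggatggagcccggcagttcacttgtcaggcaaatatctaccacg
Vgll4 region, chr6:114842486-114842686: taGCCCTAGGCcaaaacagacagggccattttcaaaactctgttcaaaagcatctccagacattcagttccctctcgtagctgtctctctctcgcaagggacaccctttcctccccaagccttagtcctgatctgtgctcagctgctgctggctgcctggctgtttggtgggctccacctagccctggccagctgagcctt
The AP-2 string was found in the window of the Vgll4 region alone, where it began 98 bp before the summit. The TEAD string GGAATG, searched on both strands, was in none of the 4 windows, nor anywhere in the 4 regions. A missing string says only that these letters are not in the window.

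All 4 regions were in introns, and only the Tead1 region was in an intron of the gene it was counted for. The Tead1 region (chr7:112762926-112763324) lay 83.8 kb downstream of the start site, in intron 2, with a −log10 p of 4.20 at its summit and an area under the curve of 458, a score that sums the −log10 p above the caller's threshold over the region. It filled 50.1% of a control peak with a −log10 p of 7.35, and its centre was 3.59 kb from an alternative start site of Tead1. The Yap1 region (chr9:8032909-8033229) had the highest values of the 4, a −log10 p of 6.31 and an area of 712. It lay 28.5 kb upstream of Yap1, in intron 3 of Cfap300, whose start site was nearer at 9.75 kb. The control peak that held it, with a −log10 p of 9.65, was the strongest distal control peak of Yap1, where distal means farther than 5 kb from any principal start site.

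The Lats1 region (chr10:7776209-7776703) was 95.2 kb downstream of Lats1, in intron 3 of Ginm1 and 4.46 kb from the Ginm1 start site, with a −log10 p of 3.79 and an area of 346. It filled 85.3% of its control peak, against 42.1% to 50.1% for the other 3 regions. The Vgll4 region (chr6:114842331-114842658) was 79.3 kb downstream of Vgll4, in intron 18 of the autophagy gene Atg7, with a −log10 p of 4.11 and an area of 311. No start site was nearer to it than that of Vgll4. The median over all regions was 4.40 for the −log10 p and 395 for the area, so that only the Yap1 region was above both medians. All 4 regions were in sequence that occurs once in the 21 chromosomes. The Lats1 region was the outermost inside the limit of 100 kb, and the nearest region outside it lay 112.4 kb from Lats2 with a −log10 p of 4.24. For control peaks the limit fell between a Lats1 peak at 99.5 kb and a Tead4 peak at 100.02 kb.

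**Figure D1:**
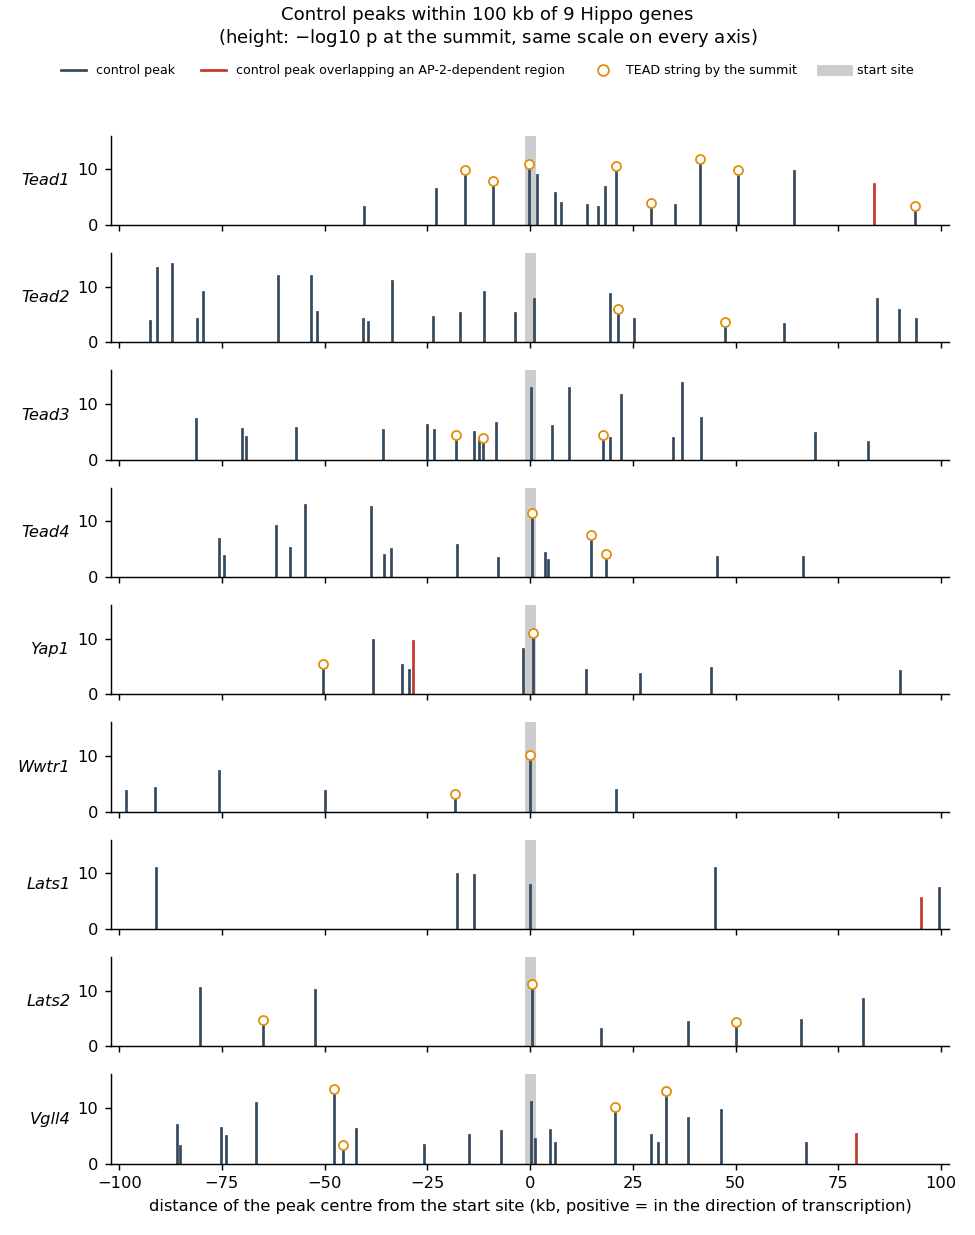
Control peaks around the 9 genes. Each line is a control peak at its distance from the start site (kb, positive in the direction of transcription), its height is the −log10 p at the summit, red lines overlap an AP-2-dependent region and circles mark the TEAD string within 100 bp of the summit. The 4 red lines stand at 83.8 kb (Tead1), −28.6 kb (Yap1), 95.2 kb (Lats1) and 79.3 kb (Vgll4), away from the start sites.

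Of the 140 control peaks, 4 overlapped a region, which is 2.86% (95% Wilson interval 1.12% to 7.12%) against 4.48% of all control peaks. When the overlap had to cover at least 50% of both peak and region, it was 2 of 140 (1.43%). The share of all control peaks was not taken under that rule. Among the 82 distal control peaks, 3 overlapped a region (3.66%, 1.25% to 10.2%), against 5.75% of all distal peaks. Among the other 58, which lay no farther than 5 kb from a start site, it was 1 (1.72%, 0.305% to 9.14%), against 1.52%. The shares in all control peaks were inside each of these intervals, which cover counting error only, so the control peaks of these genes were not distinguishable from other control peaks in how often they depended on AP-2. By gene, 4 of the 9 (44.4%) had a region within 100 kb, against 20.2% of 21938 protein-coding genes and against 27.8% of the 11663 genes that, like these 9, had 7 to 24 control peaks. The count moved with the rule. Within 50 kb it was 1 of 9 against 11.1% of genes, and within 250 kb 6 of 9 against 41.4%. With regions given only to the nearest start site it was 2 of 9 against 7.45%. With an area of at least 500 it was 1 of 9 against 7.9%. With any start site of the gene it was 5 of 9. The share of all genes was not taken under that last rule, so its count cannot be compared with other genes. The regions were spread over the pathway, with 1 near a TEAD factor, 1 near a co-activator, 1 near a kinase and 1 near VGLL4's gene. Tead2, Tead3, Tead4, Wwtr1 and Lats2 had none.

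The start sites of all 9 genes lay in a control peak, against 61.4% of protein-coding genes, and none of these 9 peaks overlapped an AP-2-dependent region. Of the 12331 control peaks over a start site 133 (1.08%) did, so a count of 0 among 9 does not set them apart. Both kinase genes, both co-activator genes, all 4 TEAD genes and Vgll4 were thus accessible at their promoters in control ectoderm. Defining genes of the surface ectoderm were open in the same list: Epcam, Cdh1, Esrp1, Grhl2, Trp63, Krt8, Krt18 and Krt5, which is 8 of 8, with summit −log10 p from 6.77 to 12.4. Of 5 mesenchyme genes, 4 were open as well, with a −log10 p from 3.27 (Prrx1) to 7.96 (Col1a1), and Pdgfra was not. Of 5 genes of blood and endothelium only Kdr was open, at 9.01. The part that other cells in the dissected tissue had in the peaks of the Hippo genes was not tested.

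Tead3, which encodes the TEAD factor known from placenta and epithelia, had the largest start-site peak. It was 4613 bp wide with an area of 15137, above 98.7% of the peaks over start sites, and a summit −log10 p of 12.8. Tead1 had an area of 8428 and a −log10 p of 11.0, and Tead4, the factor of the blastocyst's trophectoderm, 6632 and 11.5. Tead2 was the weakest of the 4, with an area of 3749 and a −log10 p of 7.85, below the medians of 4316 and 9.72 over all open start sites. The co-activator genes were both above those medians, Yap1 with an area of 8886 and a −log10 p of 11.0, and Wwtr1 with 7283 and 10.2. The kinase genes differed from each other in strength. Lats2 reached an area of 6219 and a −log10 p of 11.2, and Lats1 4891 and 7.95. Whether any of these differences exceeds the spread between libraries cannot be said, since the call is combined.

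Vgll4 was the gene whose principal start site was not its strongest. The principal start site, internal to the gene, was covered by a peak with an area of 3090 and a −log10 p of 11.0. A second peak 47.6 kb upstream covered both alternative start sites at the 5′ end of the gene, with an area of 12039, a width of 2645 bp and a −log10 p of 13.3. Because only principal start sites were used, that peak counts here as distal.

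**Figure D2:**
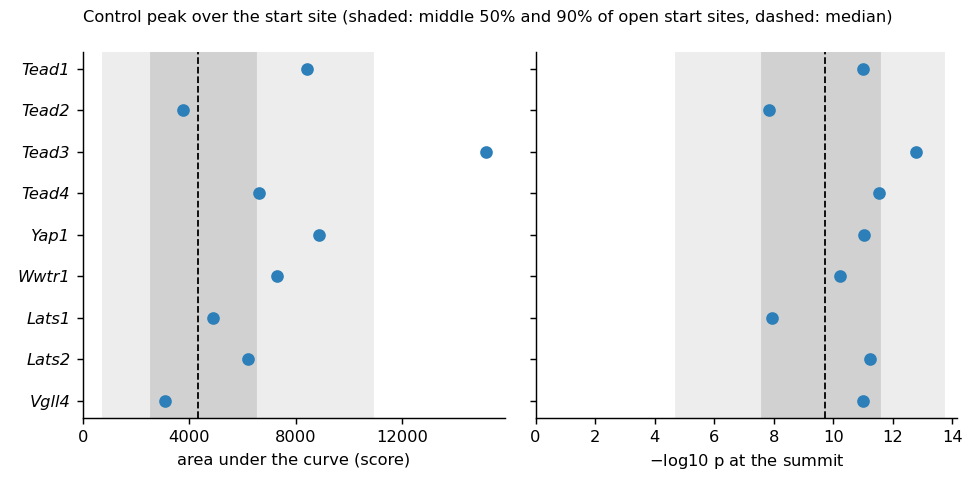
Area under the curve (score, left) and −log10 p at the summit (right) of the control peak over the start site of each gene, 1 point per gene from the combined control libraries. Shading spans the middle 50% and 90% of 13466 open start sites and the dashed line their median; Tead3 lies beyond the shaded range by area, while Tead2 and Lats1 lie left of the median by −log10 p.

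The start-site peaks of these genes were searched for the short string that TEAD factors bind. GGAATG lay within 100 bp of the summit in 5 of the 9 start-site peaks, those of Tead1, Tead4, Yap1, Wwtr1 and Lats2 (55.6%, 26.7% to 81.1%), against 953 of 13466 open start sites (7.08%). Anywhere in the peak it was in 6 of the 9, against 47.9% of control peaks over a start site, and the longer string GGAATGT was by the summit in 1 of the 9, against 1.76%. The stretches of at most 30 bases that hold these matches are shown on the plus strand of GRCm38, with GGAATG or its reverse complement CATTCC in capitals.
Tead1, chr7:112679337-112679366: tcatttCATTCCtgtcctCATTCCgcacat
Tead4, chr6:128300456-128300484: aGGAATGcacGGAATGggcgctGGAATGa
Yap1, chr9:8004720-8004749: tgcgcgtcgctaCATTCCtgcagactcccg
Wwtr1, chr3:57576029-57576058: agcgcctatctgCATTCCtttgagtttacc
Lats2, chr14:57746102-57746131: ctacattgttggCATTCCacgggcgtcacg
The matches of Tead1 were centred 26 and 38 bp downstream of the start site, and those of Tead4 342 to 363 bp downstream, in both cases in an untranslated exon. The match of Lats2 was 6 bp downstream of the start site, in an untranslated exon. Those of Yap1 and Wwtr1 were upstream, at 147 and 216 bp, outside any annotated transcript. This set of windows was looked at after the matches had been seen, and the share is a description without a test.

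Tead4 had 3 matches in its window, which 4 of the 13466 open start sites (0.0297%) had. The other 3 genes with at least 3 were Ccn2, a much studied target of YAP1 and TEAD, Id4, which encodes an inhibitor of helix-loop-helix factors, and Cep170b, a gene for a centrosomal protein. At least 2 matches were found at Tead1 and Tead4 and at 46 open start sites in all (0.342%). Tead1, Yap1 and Lats2 also had the AP-2 string in the window (3 of 9, 33.3%, 12.1% to 64.6%), which was common at start sites, with 3020 of 13466 (22.4%). Both strings together were at 188 open start sites (1.40%).

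**Figure D3:**
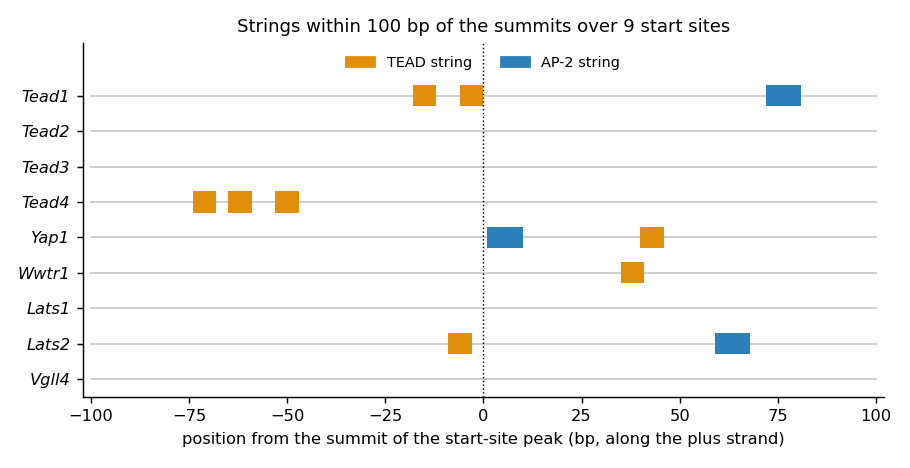
Positions of the TEAD string (orange) and the AP-2 string (blue) within 100 bp of the summit of each start-site peak, in bp along the plus strand, 1 row per gene. Tead4 has 3 TEAD strings, Tead1 has 2, Yap1, Wwtr1 and Lats2 have 1 each, and Tead2, Tead3, Lats1 and Vgll4 have none.

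In Tead4 the first 2 matches stood in tandem, in the same orientation with 3 bases between them, and the same arrangement occurred in the start-site peak of Tead3, farther from its summit. They are shown with the one at Ccn2, 29 bases each from the plus strand of GRCm38.
Tead3, chr17:28350702-28350730: gatggccGGAATGtacGGAATGagcccgg
Tead4, chr6:128300450-128300478: cccggcaGGAATGcacGGAATGggcgctg
Ccn2, chr10:24595395-24595423: gtggggaGGAATGtgaGGAATGtccctgt
The tandem of Tead3 was centred 116 bp upstream of the principal start site, in an untranslated exon of a longer Tead3 transcript, and 681 bp from the summit of the peak. That of Ccn2 was 33 bp upstream of its start site and 9 bp from the summit. Of 13466 open start sites, 9 (0.0668%) lay in a peak that held such a tandem anywhere, and Tead3, Tead4 and Ccn2 were 3 of these 9. Over all control peaks on the chromosomes it was 86 of 65298 (0.132%), and none of the other control peaks near the 9 genes had it. The tandem was searched for because it had been noticed in Tead4, so these counts carry no test.

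The promoters in the RefSeq table for GRCm38, which run from 250 bases before to 50 after a start site, were searched for the same string. The table matched 7 of the 9 genes by symbol, without Tead1 and Tead4. GGAATG or its reverse complement was in a promoter of Lats2, Tead3, Vgll4, Wwtr1 and Yap1, which is 5 of 7 genes (71.4%), against 4481 of 27025 genes (16.6%). The matches of Lats2, Wwtr1 and Yap1 are the ones shown above from the start-site peaks, and the Tead3 matches include the tandem, so this search is no independent evidence. Since some genes have several promoters, the share per window was also taken, with 7 of 11 windows of the members (63.6%), of which those of Tead3 and of Wwtr1 overlap, against 4817 of 32851 (14.7%). A Tead3 window held 3 matches, which 43 windows (0.131%) did. Tead2 and Lats1 had no match in their promoters or near the summits of their start-site peaks.

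The number of control peaks within 100 kb ranged from 7 to 24 per gene, against a median of 8 over all protein-coding genes (quartiles 4 and 13). Tead2 had 24 control peaks, more than 95.7% of genes, Tead3 and Vgll4 had 23 each (94.7%), Tead1 had 19 (89.0%) and Tead4 had 17 (84.9%). Yap1 followed with 11 and Lats2 with 9, and Wwtr1 and Lats1, with 7 each, were below the median gene. How crowded the locus was with other genes differed, from 0 other start sites within 100 kb of Tead1 and Vgll4 to 14 near Tead2. Among the 2912 genes with no other start site within 100 kb, the median was 4 control peaks, and 97.2% had fewer than Tead1 and 99.0% fewer than Vgll4. Among the 249 genes with 14 others, the median was 18, and 76.3% had fewer than Tead2. Tead3 was as far from its like, with 97.7% of the 2568 genes with 3 others having fewer and a median of 8. The nearest start site was that of the gene itself for 19 of 19 peaks of Tead1 and 18 of 23 of Vgll4, but for 3 of 23 of Tead3 and 1 of 24 of Tead2, whose other peaks were nearer to neighbouring genes.

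**Figure D4:**
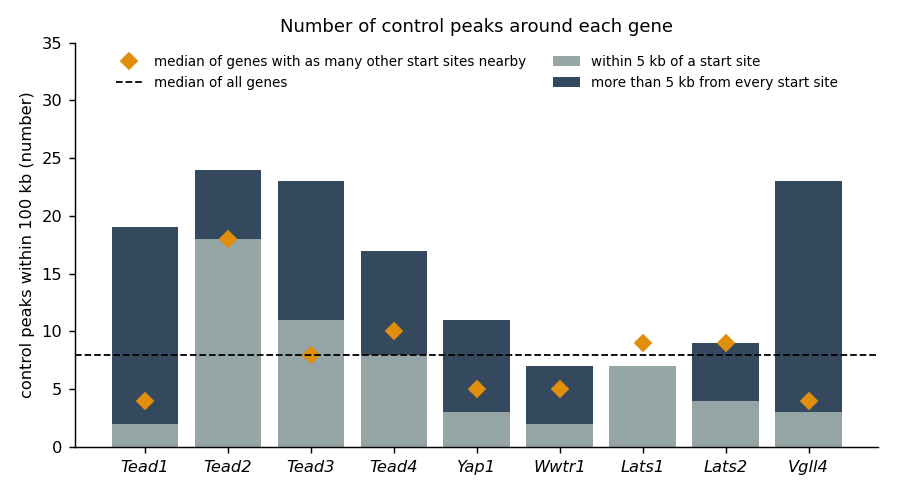
Number of control peaks within 100 kb of each gene, as bars split into peaks within 5 kb of a start site and distal peaks. Diamonds give the median of genes with as many other start sites within 100 kb and the dashed line the median of all genes, 8; the bars of Tead1 (19) and Vgll4 (23) are far above their diamonds, both at 4, as is that of Tead3 (23) above 8, and that of Lats1 (7) is below its diamond, at 9.

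Most peaks of Tead1 were inside the gene, 15 of 19, and 13 of these were distal. They began with a start-site peak and a neighbour 1.63 kb into intron 1 (−log10 p 8.94), and went on through intron 1 to 64.3 kb, with 2 more in intron 2. The strongest distal peak of Tead1 was 41.3 kb downstream, with a −log10 p of 11.9, above 99.0% of distal control peaks, and an area of 5752. A second strong one was 20.8 kb downstream, with a −log10 p of 10.6 and an area of 3534. These are shown because both hold the TEAD string, and the one at 20.8 kb also holds the AP-2 string and the string of the p53 family, to which the epidermal regulator p63 belongs. Capitals mark the strings, and in the first sequence the AP-2 string is followed by the p53-family string, with 1 base shared.
Tead1 at 20.8 kb, chr7:112700170-112700370: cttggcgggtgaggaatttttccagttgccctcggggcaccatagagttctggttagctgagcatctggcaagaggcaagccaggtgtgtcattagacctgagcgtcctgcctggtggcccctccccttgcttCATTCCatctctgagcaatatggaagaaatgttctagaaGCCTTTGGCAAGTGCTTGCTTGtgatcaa
Tead1 at 41.3 kb, chr7:112720229-112720429: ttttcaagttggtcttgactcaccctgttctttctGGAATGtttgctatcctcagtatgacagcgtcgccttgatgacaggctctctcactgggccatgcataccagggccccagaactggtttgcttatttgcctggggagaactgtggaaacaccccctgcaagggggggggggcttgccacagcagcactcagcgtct
All 3 strings were within 100 bp of the summit in 97 of 65298 control peaks (0.149%), and the Tead1 peak at 20.8 kb was the only one of the 140. Neither peak overlapped an AP-2-dependent region, although the first has the AP-2 string.

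The TEAD string was by the summit of 8 of the 19 control peaks of Tead1 (42.1%, 23.1% to 63.7%), against 17.9% of all control peaks. The 8 included the start-site peak and the peaks at −16.0 kb (−log10 p 9.86), −9.15 kb (7.84), 20.8 kb, 41.3 kb and 50.7 kb (9.79), which are among the stronger ones of the locus, and 2 weaker ones at 29.5 and 93.7 kb. Lats2 followed with 3 of 9, Wwtr1 with 2 of 7, Yap1 with 2 of 11, Tead4 with 3 of 17, Vgll4 with 4 of 23, Tead3 with 3 of 23, Tead2 with 2 of 24 and Lats1 with 0 of 7. Over all members it was 27 of 140 (19.3%, 13.6% to 26.6%), and without Tead1 19 of 121 (15.7%, 10.3% to 23.2%), so the share of the whole set was not distinguishable from that of all control peaks. In the 59 peaks nearest to the start site of the member, however, it was 18 (30.5%, 20.3% to 43.1%), an interval above the 17.9% of all control peaks, and without Tead1 it was 10 of 40 (25%, 14.2% to 40.2%), an interval that holds it. No peak of Lats2 was among these 59, since even its start-site peak was nearer to the start site of Gm49361. Among distal peaks the TEAD string was in 18 of 82 (22.0%, 14.4% to 32.1%) against 21.0%. In the 45 distal peaks for which the nearest start site was that of the member it was 14 (31.1%, 19.5% to 45.7%), and without Tead1 7 of 28 (25%, 12.7% to 43.4%). Within 5 kb of a start site it was 9 of 58 (15.5%, 8.38% to 26.9%) against 10.7%.

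The AP-2 string was by the summit of 19 of 140 peaks (13.6%, 8.86% to 20.2%), against 14.4% of all control peaks. It was in 6 of 23 peaks of Vgll4, 5 of 24 of Tead2, 3 of Tead1, 2 of Lats2, 1 each of Tead3, Yap1 and Lats1, and in none of Tead4 and Wwtr1. All 5 peaks counted for Tead2 were nearest to the start sites of neighbouring genes, and the Tead2 start-site peak lacked the string by its summit. Among distal peaks it was 7 of 82 (8.54%, 4.20% to 16.6%) against 12.3%, and within 5 kb 12 of 58 (20.7%, 12.3% to 32.8%) against 19.3%. The p53-family string was in 11 of 140 (7.86%, 4.44% to 13.5%) against 8.68%. In the 58 peaks closer to a start site it was 6 (10.3%, 4.83% to 20.8%) against 4.69%, a share just below the interval. Of these 6, only the Tead1 peak at 1.63 kb was nearest to the start site of a member. The others were nearest to Gm45713, Slc17a7, Gfy, Gm44596 or Ginm1. TEAD and AP-2 strings together were in 5 of 140 peaks (3.57%), of which 3 are the start-site peaks of Tead1, Yap1 and Lats2, 1 is the upstream peak of Vgll4 and 1 is the Tead1 peak at 20.8 kb, against 1.93% of all control peaks.

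**Figure D5:**
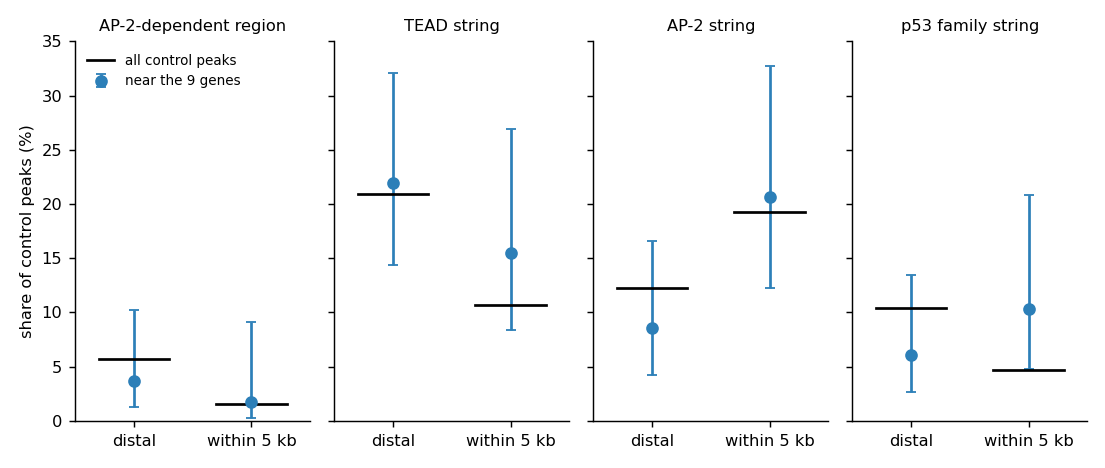
Share of control peaks (%) that overlap an AP-2-dependent region or hold a TEAD, AP-2 or p53-family string within 100 bp of the summit, for distal peaks and peaks within 5 kb of a start site. Points with 95% Wilson intervals are the peaks near the 9 genes, 82 distal and 58 within 5 kb, and black lines are all control peaks. Of the 8 intervals, 7 hold the black line, and the p53-family share within 5 kb (10.3% against 4.69%) is the exception. Most of the peaks behind that exception are nearest to the start sites of genes other than the 9.

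Vgll4 had the most distal peaks of the 9 genes, 20, of which 13 were in the gene. Its strongest ones after the upstream start-site peak were at 33.0 kb (−log10 p 13.1, area 4744) and 20.6 kb (10.1, area 7190), in introns and both with the TEAD string, and 66.6 kb upstream between genes (10.9, area 7331). Among the TEAD genes, the strongest distal peak of Tead3 was in intron 2 at 9.41 kb (12.8, area 7337), and that of Tead4 was 38.6 kb upstream in intron 1 of Tulp3 (12.5, area 4568). The strongest distal peak of Tead2 lay 84.4 kb downstream, between genes (7.73, area 1636). Around Wwtr1 and Lats2, distal peaks were weak. The strongest had a −log10 p of 4.23 (Wwtr1, 91.4 kb upstream) and 4.71 (Lats2, 65.0 kb upstream, with the TEAD string), near the median of 4.66 over all distal peaks. Lats1 had no distal peak, since all 7 of its control peaks were within 5 kb of a start site, 6 of them nearer to that of another gene.

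The strongest control peak of the whole set was not at a member. It was 87.2 kb upstream of Tead2, nearest to the start site of the ribosomal protein gene Rpl13a, with a −log10 p of 14.0 and an area of 7773, the fifth largest. The other 4 largest areas were those of the Tead3 start-site peak, the upstream peak of Vgll4 and the start-site peaks of Yap1 and Tead1. Over the 140 peaks the median −log10 p was 5.57 and the median width 698 bp, against 5.10 and 560 bp for all control peaks. Of their summits, 75 were in introns, 31 between genes, 18 in untranslated exons, 9 in coding exons and 7 in non-coding exons. Sequence repeated in the genome was behind 4 of the 140, 1 each at Tead1, Tead3, Lats2 and Vgll4, all with a −log10 p between 3.17 and 3.39.

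Upstream kinases, scaffolds, junction proteins and target genes of the pathway were taken as 30 other Hippo genes. Their start sites were open for 27 of 30, against 61.4% of protein-coding genes. They had 1 to 34 control peaks each, with a median of 9 against 8 over all protein-coding genes. Of their 314 control peaks, 9 overlapped a region (2.87%, 1.52% to 5.36%), an interval that holds the 4.48% of all control peaks. By gene, 6 of 30 (20%) had a region within 100 kb, close to the share among all protein-coding genes (20.2%), and within 250 kb it was 13 of 30 against 41.4%. The highest values were at Limd1 and Ajuba, which encode related LIM-domain proteins that bind LATS kinases at junctions. Ajuba had a region in its intron 1, 3.07 kb downstream of the start site, with a −log10 p of 9.78 and an area of 1589, above 92.0% of regions. Limd1 had 2 upstream, at 28.9 kb (−log10 p 5.62, area 1075) and 16.7 kb (67.7, area 10964), both inside Lars2, the latter in an untranslated exon and above 99.0% of regions by −log10 p. That value is also above the highest of any control peak on the chromosomes, 37.5. None of the 31-base words of this region occur in the mitochondrial genome, and what gives it such a value was not tested. The scaffold gene Wwc1 had a region 21.5 kb upstream (3.22), and the atypical cadherin gene Fat4 had one 36.0 kb upstream (3.31). Vgll3, a relative of Vgll4, had 2 regions downstream, at 19.7 kb (3.91) and 53.8 kb (4.08), and the latter held the TEAD string. Ccn1, a target of YAP1 and TEAD, had 1 region 15.1 kb downstream (3.63) and 1 region 58.9 kb upstream (4.56).

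At the open start sites of these other genes, GGAATG was within 100 bp of the summit for 8 of 27 (29.6%), against 7.08% of all open start sites. They were Ccn2 with 3 matches, Wwc2 and Ptpn14 with 2 each, and Sav1, Amotl2, Ajuba, Vgll3 and Ccn1 with 1 each. Ccn1, Ccn2 and Amotl2 are textbook targets of YAP1, and Wwc2, Ptpn14, Sav1 and Ajuba encode regulators of the pathway. Other target genes in the list went the other way. Axl and Birc5 had open start sites without the string by the summit, and the start site of Ankrd1 was not open. As for the 9 genes, this was looked at after the first matches had been seen, and it is given without a test.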

How the data were processed

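ATAC-seq, in which a transposase cuts accessible DNA, was performed on 2 control and 2 EDKO libraries of E11.5 facial surface ectoderm. The authors trimmed reads with NGmerge, aligned them to mm10 with bowtie2, allowing several positions per pair, and called peaks with Genrich without duplicates and the mitochondrial chromosome. The deposited values of a peak are a score (the area under the curve), the unadjusted −log10 p at the summit and the summit offset. The study's methods state a sequencing depth per sample, but the lists hold no read counts, so precision is given only as 95% Wilson intervals of counts of peaks, which are not replicates. No p-value was computed. The choice of members, gene lists and strings was made with earlier results of these data known.

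Principal transcripts (APPRIS) of GENCODE release M21 gave 21938 protein-coding start sites on GRCm38, and all peaks on the 21 chromosomes fell within its lengths. Overlap was counted from 1 bp. Strings were GGAATG (TEAD), GCCNNNGGC (AP-2) and the p53-family string, on both strands within 100 bp of the summit. On scaffolds lay 169 control peaks and 31 regions, which were not searched. Repeated sequence had a median of at least 2 copies of its 31-base words. All 9 members, every region near them, their start-site peaks, their strongest distal peaks, the 5 largest areas and the other Hippo genes with a region were named by rule; matches at start sites, the tandem, RefSeq promoters and the 2 printed Tead1 peaks were singled out after their values were seen. Overlaps, distances, strings and copy numbers were tested on simulated data, with 0 differences from bedtools, direct search or the planted answer. Python 3.11.15, numpy 2.4.6 and pandas 2.3.3 were used. Alternatives were the limits of 50 and 250 kb, other start sites, positions, strings and filters. EDKO peaks, coverage tracks and expression were not analysed here.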

Additional observations from a re-analysis of the deposited data

How the results depend on the processing

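Of 61 alternative values for 9 results, 42 stayed within 1.5 times the count or within the interval of the share. With a limit of 50 kb there were 91 control peaks and 1 region, near 1 member (11.1% of all protein-coding genes had one). Of these peaks 1 of 91 (1.10%) overlapped a region, against 4.48% of all control peaks. With a single overlapping peak, and no split by distance from a start site, the 2 shares cannot be called different. With 250 kb there were 295 control peaks and 9 regions, near 6 members, and 13 of the other Hippo genes had a region (41.4% of all protein-coding genes did). Counting only peaks nearest to the start site of the gene left 59 control peaks and 2 regions, near 2 members (7.45% of all protein-coding genes had one). The TEAD string was then in 30.5% of the peaks (20.3% to 43.1%), above the 17.9% of all control peaks, and in 25% (14.2% to 40.2%) without Tead1. An area of at least 500 left 1 region, near 1 member, and 3 of the 30 other Hippo genes had a region, against 7.9% of all protein-coding genes. The share of member peaks overlapping a region was then 1 of 97 (1.03%), and that of all control peaks was not taken under this filter. The string GGAATGT was in 7.14% of member peaks (7.25% of all control peaks), and anywhere in the peak the TEAD string was in 37.9% (39.3% of all) and the AP-2 string in 30.7% (32.4% of all). The cause was not tested. Of the 9 start-site peaks, GGAATGT was in 1 (1.76% of all start-site peaks) and GGAATG anywhere in the peak was in 6 (47.9% of all). These alternatives for the start-site peaks and the RefSeq promoters were chosen after seeing the data. All 9 start sites stayed open under each of the 4 alternatives tried. No paired analysis was possible because both libraries of a group were combined in each call, and for the same reason no library could be left out. Without read counts per peak, weak peaks and regions cannot be told from missed ones.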
